A study of Arabidopsis thaliana with 5 samples.

Results

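The GRAS family of Arabidopsis thaliana was examined as a group of 31 genes, chosen by locus from the 33056 annotated genes of chromosomes 1 to 5 because SCL28, the immunoprecipitated protein of this study, is itself a GRAS protein. For each gene, every peak whose edge lay within 2 kb of the annotated gene was collected from 5 lists. Chromatin of whole seedlings of the lines labelled E1M-GFP (SCL28 fused to GFP) and SNOS1-GFP (AtSMOS1 fused to GFP) was precipitated with an antibody against GFP, with 2 replicates of each line. Total chromatin of Col0 plants without a transgene, with 1 sample, served as the input. All plants were of the Col-0 ecotype, grown under long days per the labels, whereas the general methods of the study name continuous light. AtSMOS1-GFP was driven by its own promoter, whereas the Results of the study name the RPS5A promoter, active in dividing cells, for SCL28-GFP and its ChIP methods name the SCL28 promoter. The study describes the replicates as biological. Whether each line descends from 1 transformant is not given in the sources used here.

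GRAS proteins are plant regulators of transcription with a conserved C-terminal domain, and most are thought to act through DNA-binding partners. The family holds the DELLA proteins, which hold back growth until gibberellin triggers their destruction. It also holds SHR and SCR, which pattern the root, the HAM and LAS proteins of shoot meristems, and the PAT1 branch, known from light signalling. SCL28 works with AtSMOS1, a protein with an AP2 domain, and the lists were read here for peaks of the pair at the genes of SCL28's own relatives.

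On chromosomes 1 to 5 the SCL28 lists held 488 and 396 peaks, the AtSMOS1 lists 5438 and 6934 peaks, and the input list 5695 peaks. A peak's fold enrichment is the ratio of signal at its summit to the local background, as the authors' caller gave it. By the study's Reporting Summary, the peaks were called with an input file as the control. A place of high input signal was therefore less likely to be listed as a ChIP peak. The median fold enrichment was 4.00 and 4.50 in the SCL28 lists, 3.65 and 3.34 in the AtSMOS1 lists, and 3.72 in the input. The lists hold no read counts, and by the study's own summary the SCL28 libraries had more uniquely mapped reads than the AtSMOS1 libraries in each replicate. A gene without a peak is one where none was detected at the threshold of the list. In both replicate 2 lists the peaks carry the name of the other line, and the lists were used as their samples are labelled. Whether the study's read numbers for replicate 2 follow the sample labels or the peak names is not given in the sources used here. The list labelled SCL28 replicate 2 held a peak on the SCL28 coding sequence and none of the AtSMOS1 lists did. The list labelled AtSMOS1 replicate 2 held a peak of 4458 bp over the AtSMOS1 gene, compared with 4323 bp in replicate 1.

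SCL28 peaks were found at 1 of the 31 GRAS genes, and that gene was SCL28 itself. Among all genes, 2.71% had an SCL28 peak by the same rule in replicate 1, 2.27% in replicate 2 and 2.06% in both. AtSMOS1 peaks were found at 19 GRAS genes in replicate 1, at 21 in replicate 2 and at 19 in both. The share in both replicates was 61.3% of the GRAS genes, compared with 20.7% of all genes, with 24.0% of all genes for replicate 1 alone and 30.3% for replicate 2 alone. Among protein-coding genes, the share with AtSMOS1 peaks in both replicates was 21.1%. The input had a peak at 17 GRAS genes (54.8%), compared with 26.7% of all genes and 27.9% of protein-coding genes. The GRAS family therefore stood above the background share in the control without an antibody as well as in the AtSMOS1 lists. No test was run on these shares.

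The surroundings of the genes differed in the same direction. The median distance to the next annotated gene upstream was 1635 bp for GRAS genes and 961 bp for protein-coding genes, and downstream it was 1556 bp and 829 bp. The median gene length was 2381 bp and 2078 bp, respectively. The 19 GRAS genes with AtSMOS1 peaks in both replicates had a median of 1715 bp upstream and 1709 bp downstream, and the other 12 had 1451 bp and 954 bp. The part of this spacing in the counts was not tested.

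**Figure D1:**
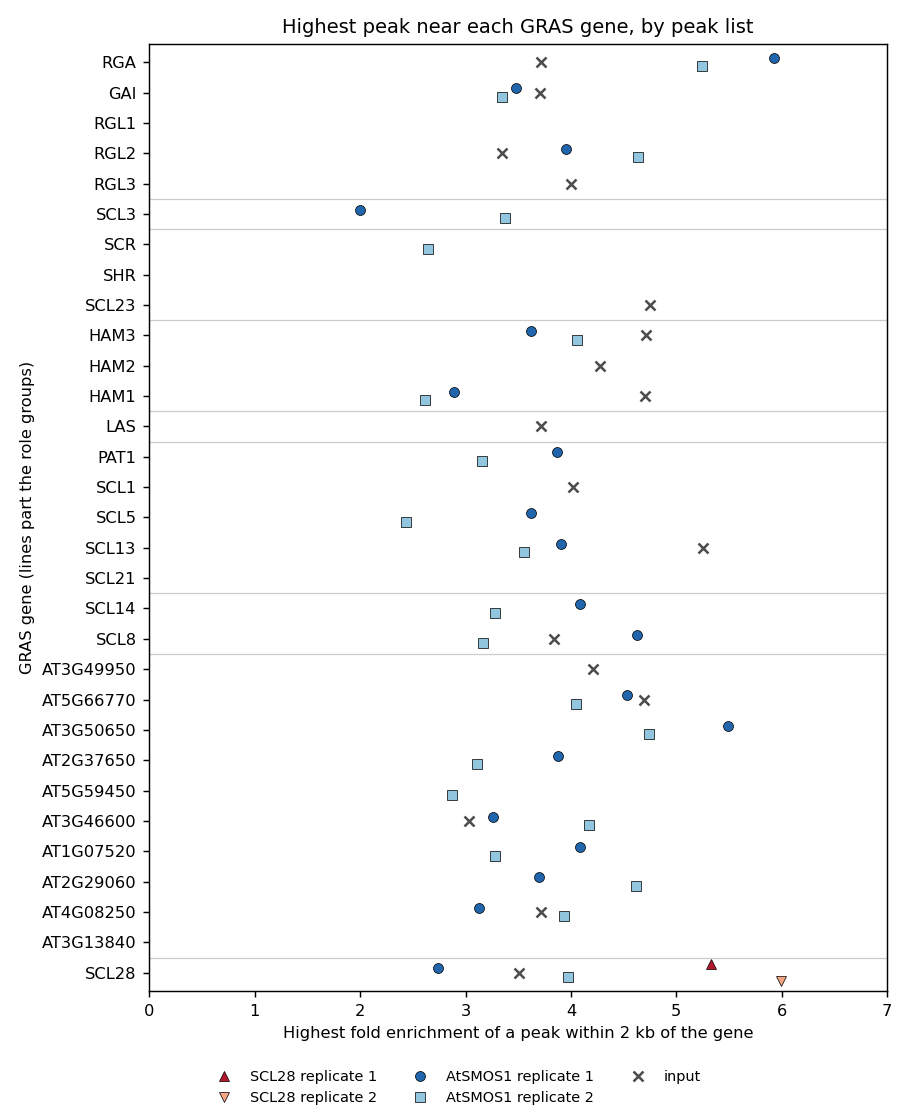
Highest fold enrichment (x axis, a ratio) of any peak within 2 kb of each of the 31 GRAS genes (rows), with 1 mark per list and no mark where a list had no peak. AtSMOS1 marks in both replicates stand at 19 genes, SCL28 marks stand at SCL28 alone, and RGL1, SHR, SCL21 and AT3G13840 have no mark. The SCL14 and AT1G07520 rows show the same AtSMOS1 peaks, which lie between these neighbours.

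SCL28 (AT1G63100) lies on the minus strand of chromosome 1 of TAIR10, from 23399112 to 23402176. Its SCL28-GFP peak ran from 23399398 to 23401404 in replicate 1, with a fold enrichment of 5.33, and from 23399430 to 23401432 in replicate 2, with 5.99. The stretch from the start to the stop codon extends from 23399391 to 23401367, and the peaks covered 99.6% and 98.0% of it. They began 37 and 65 bp before the start codon and ended 7 and 39 bp before the end of the stop codon. With 2007 and 2003 bp, they were the longest peaks of their lists, whose median lengths were 385 and 321 bp. The peaks thus followed the coding sequence that the transgene carries in both replicates, and they are treated as signal of the transgene and not as binding at the native gene. Another long SCL28 peak, of 1577 bp in replicate 1 and 1587 bp in replicate 2, lay at the promoter of RPS5A (AT3G11940), with a fold enrichment of 7.20 and 5.70. This is the promoter that the Results of the study name for SCL28-GFP, and no AtSMOS1 peak was listed there. Which promoter the precipitated line carried was not tested. Long SCL28 peaks were not limited to the SCL28 and RPS5A sequences. A peak of 1622 and 1502 bp lay over YUC5 (AT5G43890), a gene of auxin synthesis. Its values of 33.2 and 22.3 were the highest of both SCL28 lists. Unlike RPS5A, YUC5 also had AtSMOS1 peaks, with 25.0 and 29.1.

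No SCL28 peak was listed upstream of SCL28. AtSMOS1 had 1 peak near the gene in each replicate, with a fold enrichment of 2.74 and 3.97, and its nearest edge lay 1527 and 1466 bp past the 3′ end. The input had a peak of 3.51 on the other side, with its summit 1045 bp upstream of the transcription start site (TSS). These peaks did not touch each other. With the transgene signal counted, SCL28 was the only GRAS gene with peaks of both proteins in both replicates, compared with 1.46% of all genes. Without SCL28, it was 0 of the other 30. Overlapping peaks of both proteins in both replicates were found at 0 of the 31 genes, compared with 1.27% of all genes.

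**Figure D2:**
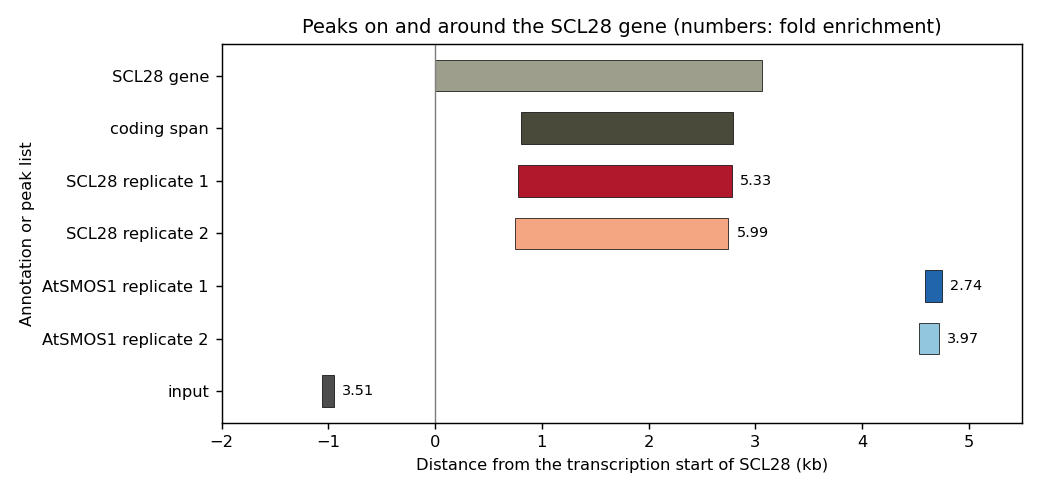
Peaks around the SCL28 gene, drawn as bars to scale in kb from its TSS, with the gene and its coding span above and the fold enrichment beside each peak. The 2 SCL28-GFP peaks match the coding span in place and length, the AtSMOS1 peaks lie past the 3′ end, and the input peak lies upstream.

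For the other 30 GRAS genes, the nearest SCL28 peak lay outside the window. The smallest gap was found at AT3G13840, with 3.96 kb in replicate 1 and 3.87 kb in replicate 2. RGL1 followed with 4.10 kb in replicate 1, but its nearest peak in replicate 2 lay at 113 kb. HAM1 had 5.21 and 5.29 kb. The median gap over the 30 genes was 45.8 and 46.7 kb, and over all protein-coding genes it was 80.0 and 96.9 kb.

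The AtSMOS1 peaks of the family numbered 25 in replicate 1 and 30 in replicate 2. In replicate 1, 19 of the 25 had an overlapping peak in replicate 2 (76.0%, whereas the share of all AtSMOS1 peaks of replicate 1 was 81.1%), and in replicate 2 it was 19 of 30 (63.3%, whereas the share of the list was 61.1%). The 19 pairs define sites seen in both replicates, and they belong to 16 GRAS genes, because the site between SCL14 and AT1G07520 lies within 2 kb of both. Among all genes, 19.7% had such a site. None of the 25 and none of the 30 peaks overlapped an input peak, as was also the case for all but 0.497% and 0.534% of the AtSMOS1 peaks of the whole lists. Because the input was the control of the AtSMOS1 lists, the calling itself disfavours such overlaps. The distance between the summits of the replicates was 4 to 120 bp at these sites. Its median was 36.0 bp, compared with 50 bp over the 4415 pairs of the whole lists.

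At these 19 sites, the fold enrichment ranged from 2.00 to 5.93 in replicate 1, with a median of 3.70, and from 2.33 to 5.24 in replicate 2, with a median of 3.92. The medians over all 4415 pairs were 3.82 and 3.74, so the medians of the family were close to those of the lists. Replicate 1 gave the higher value at 11 of the 19 sites, and the ratio of replicate 1 to replicate 2 ranged from 0.692 to 1.46. Against the medians of the whole lists, 3.65 and 3.34, 6 sites exceeded the median in both replicates. In both replicates, 4 sites stayed at or below it. The same counts were not made over the 4415 pairs, so no share stands beside them. Differences of up to 1.46 times between GRAS sites were therefore within the spread between the replicates of a site.

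The sequences of 6 sites are shown because they had the highest fold enrichment in the weaker replicate among sites whose window does not touch a protein-coding gene. Each window spans the summits of both replicates with 50 bp on either side, on the plus strand of TAIR10, and was read from the RefSeq copy of that assembly. Capitals mark matches of GGATNC, on either strand, the core of the motif that the study found at common targets of SCL28 and AtSMOS1. The windows lie at chr2:259038-259197 (RGA upstream), chr3:18809805-18809952 (AT3G50650), chr5:26659280-26659389 (AT5G66770), chr3:822680-822816 (RGL2), chr2:253993-254123 (RGA downstream) and chr4:56945-57065 (HAM3).
RGA upstream: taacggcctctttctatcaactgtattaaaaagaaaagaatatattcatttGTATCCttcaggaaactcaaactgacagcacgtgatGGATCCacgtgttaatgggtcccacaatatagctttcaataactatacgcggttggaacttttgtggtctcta
AT3G50650: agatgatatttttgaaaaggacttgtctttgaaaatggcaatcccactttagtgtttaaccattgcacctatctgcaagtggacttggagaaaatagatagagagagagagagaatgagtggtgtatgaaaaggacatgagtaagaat
AT5G66770: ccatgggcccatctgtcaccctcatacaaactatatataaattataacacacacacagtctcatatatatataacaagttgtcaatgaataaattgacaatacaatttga
RGL2: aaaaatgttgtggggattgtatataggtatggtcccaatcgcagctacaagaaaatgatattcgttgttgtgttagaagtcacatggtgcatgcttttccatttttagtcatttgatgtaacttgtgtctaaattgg
RGA downstream: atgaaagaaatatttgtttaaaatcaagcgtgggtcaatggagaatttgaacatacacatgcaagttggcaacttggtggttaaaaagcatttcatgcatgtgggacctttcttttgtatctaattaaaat
HAM3: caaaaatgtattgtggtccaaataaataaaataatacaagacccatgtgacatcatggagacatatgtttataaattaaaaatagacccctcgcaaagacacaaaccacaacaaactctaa

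The core was present in the upstream RGA window alone, with 2 matches, and the other 5 windows had 0. The match GGATCC in that window has a copy of CACGTG on either side, and the copy at its 3′ side shares a base with it. CACGTG is the sequence known as the G-box, read by several families of plant transcription factors. It was counted after these windows had been read. It stood within the 200 bp around the summit of 5 of the 25 AtSMOS1 peaks of the family in replicate 1 (20.0%, compared with 14% of the list) and of 4 of the 30 in replicate 2 (13.3%, compared with 15.0%). The genes were RGA, GAI, HAM3 and SCL8 in both replicates and AT2G37650 in replicate 1 alone. In the input, it was 0 of the 24 peaks of the family and 5.39% of the list.

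Of the 5 DELLA genes, RGA, GAI and RGL2 had AtSMOS1 peaks in both replicates, and RGL1 and RGL3 had none. RGA (AT2G01570), a main DELLA repressor of growth, had the strongest site of the family. Its peak ran from 258938 to 259310 on chromosome 2 in replicate 1 and from 258919 to 259336 in replicate 2, with a fold enrichment of 5.93 and 5.24. Both summits, 1579 and 1520 bp upstream of its TSS, fell within AT2G04015, an annotated long noncoding RNA gene that is also the gene nearest to the site. These values stood at the percentiles 95.4 and 93.0 of their lists. Another RGA site lay 1174 and 1204 bp past the 3′ end, with 5.18 and 3.92. A further RGA peak, with 2.27, was listed in replicate 2 alone, with its summit 17 bp inside the 5′ leader.

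GAI (AT1G14920), the DELLA closest to RGA, had a site 907 and 990 bp upstream of its TSS, with a fold enrichment of 3.48 and 3.35. A further site lay in its 3′ trailer, with 3.18 and 2.56, and a peak 1839 bp upstream, with 3.10, was listed in replicate 1 alone. RGL2 (AT3G03450), the DELLA known for holding back seed germination, had 1 site, 1078 and 1114 bp upstream, with 3.95 and 4.64. The gene nearest to the RGL2 site is AT3G03460, which lies next to the peak. The input had peaks in the coding sequence of RGA, GAI, RGL2 and RGL3, with values from 3.0 to 4.00. RGL1 had no peak in any list. The DELLA genes were therefore split, with 3 having distal upstream sites within the window in both replicates and the other 2 without an AtSMOS1 peak. At each of these upstream sites the nearest annotated gene was another gene, which was AT1G05133 for GAI. The summit of the GAI peak at 1839 bp lay inside AT1G05133. The downstream RGA site and the GAI trailer site had the DELLA gene as the nearest.

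SCL3 (AT1G50420), a GRAS protein that works against the DELLA proteins in gibberellin responses, had a site 785 and 758 bp upstream of its TSS. Its fold enrichment of 2.00 in replicate 1 was among the lowest of that list, with a −log10 q of 1.38, and it was 2.79 in replicate 2. A stronger SCL3 peak, with 3.37 and its summit 161 bp inside the 5′ leader, was listed in replicate 2 alone. SCL3 had no input peak.

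None of the 3 genes of the SHR and SCR group had AtSMOS1 peaks in both replicates. SCR (AT3G54220), needed to form the endodermis of the root, had a peak in replicate 2 alone, with a fold enrichment of 2.64 at 765 bp upstream of its TSS. SHR (AT4G37650), the mobile protein that acts with SCR, had no peak in any list. SCL23 (AT5G41920), a close relative of SCR, had an input peak of 4.75 at 748 bp past its 3′ end, within the neighbouring gene AT5G41940, and no AtSMOS1 peak.

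The HAM genes, whose products maintain shoot meristems and whose mRNAs are targets of miR171, all had input peaks, and 2 of the 3 had AtSMOS1 peaks in both replicates. HAM3 (AT4G00150) had 2 sites past its 3′ end. The nearer site had its summits 125 and 145 bp past that end, with a fold enrichment of 3.62 and 4.06, and the farther had 2.46 and 2.33 at 732 and 736 bp. HAM1 (AT2G45160) was called in both replicates through different peaks, with 2.89 at 2050 bp upstream in replicate 1 and 2.62 at the TSS itself in replicate 2. HAM2 (AT3G60630) had input peaks alone, as did LAS (AT1G55580), a regulator of axillary meristems, with 3.72 in its coding sequence. In the HAM genes, the input peaks lay in the coding sequence or the leader and reached 4.71, and the AtSMOS1 values reached 4.06. These values are not on one scale, because AtSMOS1 peaks were called with the input as the control and input peaks were not described so.

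Of the 5 genes of the PAT1 branch, PAT1, SCL5 and SCL13 had AtSMOS1 peaks in both replicates, and SCL1 and SCL21 had none. At SCL13 (AT4G17230), known from phytochrome B signalling, the site lay at the TSS, with summits 16 and 58 bp upstream and a fold enrichment of 3.91 and 2.67. Replicate 2 listed 3 further SCL13 peaks, and the one with its summit in the 3′ trailer had the highest value, 3.55. SCL13 also had an input peak in its coding sequence, with 5.25, the highest input value of the family. PAT1 (AT5G48150), which acts in phytochrome A signalling, had 3.87 at 862 bp past its 3′ end and 3.63 in its coding sequence in replicate 1, and 3.16 in its 5′ leader in replicate 2. SCL5 (AT1G50600) had 3.62 at 1723 bp upstream in replicate 1 and 2.44 at 117 bp past the TSS in replicate 2. PAT1 and SCL5 were thus called in both replicates without a shared site, like HAM1. SCL21 (AT2G04890), also known from phytochrome A signalling, had no peak in any list, and SCL1 (AT1G21450) had an input peak of 4.02 at 1716 bp past its 3′ end.

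SCL14 (AT1G07530), which activates genes of detoxification together with TGA factors, and its neighbour AT1G07520 shared a site in the space between them. Its fold enrichment was 4.09 in replicate 1 and 3.28 in replicate 2. The summits lay 521 and 473 bp past the 3′ end of SCL14 and 675 and 723 bp upstream of the TSS of AT1G07520, so the gene it belongs to cannot be told apart. SCL8 (AT5G52510) had a site near its TSS, with summits 198 and 172 bp upstream and 4.63 and 3.17. A peak past the 3′ end of SCL8, with 3.62, was listed in replicate 1 alone. SCL8 also had an input peak of 3.84 in its coding sequence.

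The remaining 10 GRAS genes carry no name in the annotation used, and 7 of them had AtSMOS1 peaks in both replicates. AT3G50650 stood next to RGA, with a site from 18809768 to 18810046 on chromosome 3 in replicate 1 and from 18809607 to 18810090 in replicate 2. Its fold enrichment was 5.49 and 4.74, with summits 1612 and 1659 bp upstream. A nearer AT3G50650 peak, with 3.93 at 965 bp upstream, was listed in replicate 2 alone. At AT5G66770, the site lay 972 and 981 bp upstream, with 4.53 and 4.05, next to the long noncoding RNA gene AT5G09705. AT3G50650 had no input peak, whereas AT5G66770 had input peaks of 4.69 and 2.86 in its coding sequence.

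The site of AT2G29060 lay 249 and 304 bp past its 3′ end, with a fold enrichment of 3.70 and 4.62. Its summits fall within the adjacent gene AT2G29065, which RefSeq also annotates as a GRAS gene and which is not among the 31. AT2G37650 had a site at 96 and 74 bp upstream, with 3.88 and 2.97, and another at 1906 and 1911 bp, with 2.79 and 3.11. AT3G46600 had a site in an intron, 88 and 208 bp past the TSS, with 3.26 and 4.17, next to an input peak of 3.03 that it did not overlap. AT4G08250 had a site 221 and 159 bp upstream, with 3.13 and 3.93, whose summits lay within the neighbouring gene AT4G08240. It also had an input peak of 3.72 at 1179 bp past its 3′ end. AT5G59450 had a peak in replicate 2 alone, with 2.87 at 1376 bp upstream. AT3G49950 had an input peak of 4.21 alone, and AT3G13840 had no peak in any list.

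**Figure D3:**
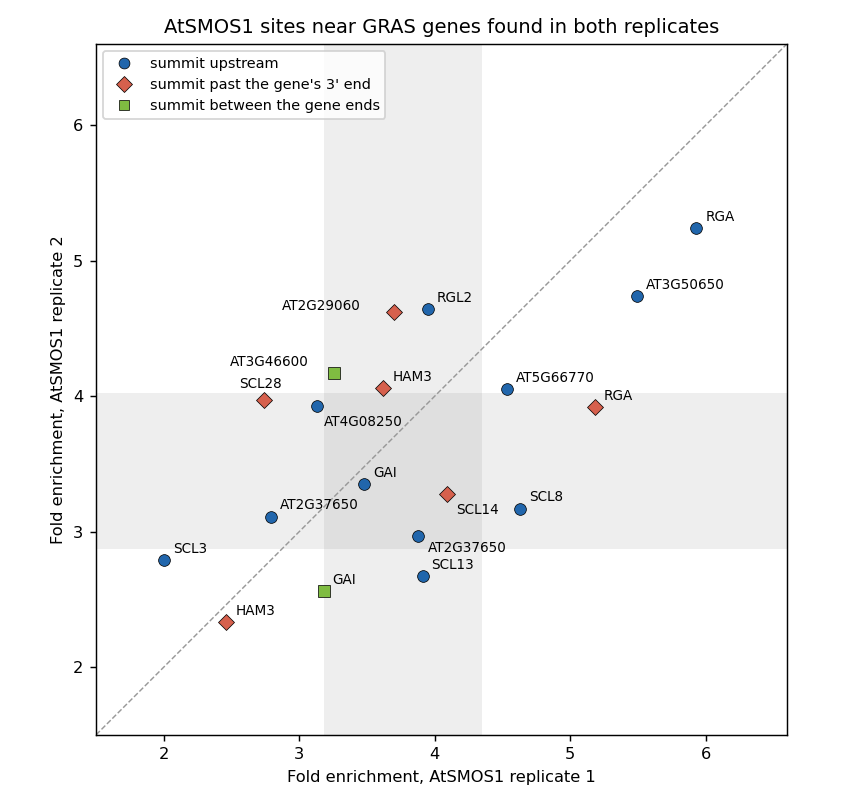
Fold enrichment of the 19 AtSMOS1 sites near GRAS genes in replicate 1 (x axis) and replicate 2 (y axis), both as ratios, with 1 mark per site and its shape giving the side of the gene. Grey bands span the middle quartiles of each whole list (3.18 to 4.35 and 2.87 to 4.02) and the dashed line marks equal values. The upstream sites of RGA, AT3G50650 and AT5G66770 stand above the bands in both replicates.

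Of the 19 sites, 11 had both summits upstream of the gene, 6 had both past its 3′ end and 2 had both between the gene ends. Of the upstream sites, 6 lay at least 900 bp from the TSS, and the SCL3 site lay at 785 and 758 bp. Within 250 bp of the TSS lay 5 of the 19 sites, including the intron site of AT3G46600, which is not upstream. In 12 of the 19 sites, the GRAS gene was the nearest annotated gene. Counted by peak, 14 of 25 in replicate 1 and 16 of 30 in replicate 2 had their summits upstream. The AtSMOS1 peaks of the whole lists were not placed in this way. These counts therefore describe the sites and do not set the family apart from other genes.

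The input peaks of the family had another arrangement. Of its 24 peaks, 18 had their summits in the coding sequence, 1 in a 5′ leader, 2 upstream and 3 past the 3′ end. This put 79.2% between the ends of the GRAS gene. Counted in any protein-coding gene, it was 20 of the 24 (83.3%), compared with 52.2% of the whole input list. For AtSMOS1, the shares between the ends of the GRAS gene were 12% in replicate 1 and 26.7% in replicate 2. Counted in any protein-coding gene, they were 20.0% and 33.3%, compared with 31.2% and 32.7% of the whole lists. Seen by gene, 12 of the 31 GRAS genes had an input summit between their ends, compared with 10.1% of protein-coding genes. An AtSMOS1 summit lay between the ends of 3 genes in replicate 1, compared with 5.65% of protein-coding genes, and of 8 genes in replicate 2, compared with 7.56%. The GC content of 200 bp around the summits had a median of 54.8% for input peaks of the family and 49.0% for the whole input list. It was 34.0% and 36.2% for the AtSMOS1 peaks of the family, compared with 35.0% in each whole AtSMOS1 list. Listed input and AtSMOS1 peaks thus lay at different places of the same genes and at sequence of different composition. The AtSMOS1 peaks were called with the input as the control, which disfavours places of high input signal. How much of this separation comes from the calling was not tested.

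**Figure D4:**
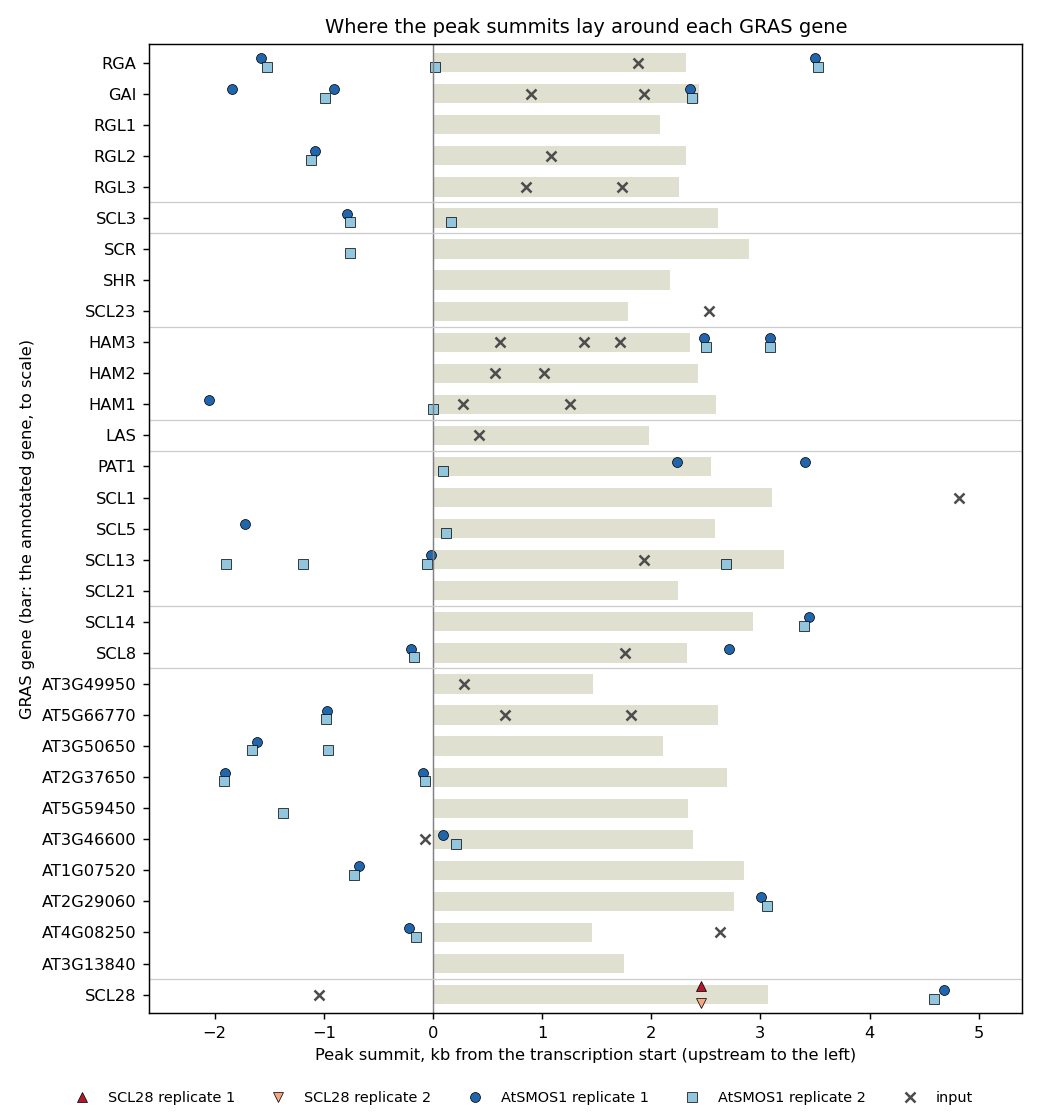
Summits of all peaks within 2 kb of the GRAS genes, in kb from each TSS with upstream to the left, and genes drawn as bars to scale. The AtSMOS1 marks lie mostly upstream and past the 3′ end, and 18 of the 24 input summits lie in coding sequence.

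The sequence motif of the common targets, 12 bp long, was searched on both strands in the 200 bp around each summit. An exact match was found at 0 of 25 and 0 of 30 AtSMOS1 peaks of the family, compared with 1.05% and 0.923% of the AtSMOS1 lists and with 20.9% and 25.3% of the SCL28 lists. The core GGATNC was present at 4 of 25 (16.0%) and 4 of 30 (13.3%), compared with 16.7% and 16.3% of the AtSMOS1 lists. In promoters, taken as 250 bp before and 50 bp after the TSS, 0 of the 31 GRAS genes had an exact match, compared with 0.226% of protein-coding genes, and 2 had the core, compared with 19.3%. With 1 mismatch allowed, the motif was found at 0 of 25 and 1 of 30 AtSMOS1 peaks of the family (3.33%), compared with 5.70% and 5.65% of the AtSMOS1 lists and with 48.4% and 58.6% of the SCL28 lists. The same search found it in 2 of the 31 GRAS promoters (6.45%), compared with 5.78% of protein-coding genes. The match at a peak was that of replicate 2 in the leader of RGA. It is shown in capitals, on the minus strand at chr2:257463-257492, and it lacks the exact core.
RGA leader: ccatttgctCTTAAGATTCTTcacatagag

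A list of 25 genes that act with GRAS proteins was counted by the same rule. AtSMOS1 peaks were found at 9 of them in replicate 1 (36.0%, compared with 24.0% of all genes), at 13 in replicate 2 (52.0%, compared with 30.3%) and at 9 in both (36.0%, compared with 20.7%). The 9 include AtSMOS1 itself, whose peak is treated as signal of its transgene, and without it the count in both was 8 of 24 (33.3%). The input had a peak at 7 (28%), close to the 26.7% of all genes. SCL28 peaks were found at 2 genes in replicate 1, at 1 in replicate 2 and at 1 in both (4.00%, compared with 2.06% of all genes). The gibberellin receptor genes GID1A, GID1B and GID1C all had AtSMOS1 peaks in both replicates, with highest values of 5.54 and 3.57, 4.43 and 6.10, and 2.96 and 4.23. SLY1, the F-box gene that targets DELLA proteins for destruction, had 3.10 and 2.53. The nearest gene was AT3G05110 for these GID1A peaks and AT4G24220 for the SLY1 peaks. For GID1B and GID1C it was the receptor gene itself. Input peaks were listed near SLY1, with 3.94, and near GID1B, with 3.99. Of the gibberellin enzymes, GA20OX3, which makes precursors of active gibberellin, had 6.06 and 5.39, and GA2OX6, which inactivates gibberellins, had 5.03 and 5.48. The other 7 enzyme genes of the list were not called in both replicates.

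Among the genes tied to SHR and SCR, CYCD6;1, a cyclin gene that both activate, had AtSMOS1 values of 3.69 and 2.81, and AT3G45260 had 6.28 and 6.46. AT3G45260 also had an SCL28 peak in replicate 1, with 3.34 at 507 bp upstream of its TSS, which was not listed in replicate 2. JKD, MGP, WUS, TGA2, MIR171A and MIR171C had no peak in any list. AtSMOS1 itself was the only gene of the list with SCL28 peaks in both replicates, with summits 281 and 275 bp upstream of its TSS and a fold enrichment of 10.2 and 10.1. Its AtSMOS1-GFP peaks, with 15.2 and 14.5, covered the whole gene that the AtSMOS1 transgene carries.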

How the data were processed

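ChIP-Seq peaks of 5 samples were analyzed, and the members and gene lists were chosen with earlier results of these data known. Per the submitters' processing notes, the tools were Trimmomatic 0.38, Bowtie2 2.3.5, SAMtools 1.9, MACS2 2.2.7.1 and deepTools. Methods and Reporting Summary of the study differ on aligner and fragment settings. The authors aligned reads to TAIR10 and called peaks for each sample at a q value cutoff of 0.05. The deposited lists give the fold enrichment as a ratio over the local background, and −log10 of the p-value and q-value. The deposited score follows the q value and was not used, and the summit offset was read as deposited. The control used to call input peaks is not given in the sources used here.

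Genes came from RefSeq (TAIR10.1), whose coordinates were identical for all 2487 genes compared with a TAIR10 table of the study. Pseudogenes and organelle peaks were left out. A gene was called when a peak edge lay within 2 kb, and peaks overlapped when they shared at least 1 bp. All 31 members are named, with all peaks where SCL28 had any, and otherwise with the highest value in each replicate. No test was run, and results are given as counts beside the share of all genes. Sites belong to the GRAS gene with the nearest edge. The functions were tested on simulated data. Computations used python 3.11.15 and matplotlib 3.10.9.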

Additional observations from a re-analysis of the deposited data

How the results depend on the processing

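The count of 19 GRAS genes with AtSMOS1 peaks in both replicates depended most on the threshold and on the rule that ties a peak to a gene. When the −log10 q had to reach 5, it was 8 (25.8%, compared with 9.71% of all genes) and 12 when only the gene nearest to a peak was counted (38.7%, compared with 10.6%). It was 16 when replicate peaks had to overlap (51.6%, compared with 19.7%), an alternative chosen after seeing the data, which lost HAM1, PAT1 and SCL5. With edges within 1 kb it was 13 (41.9%, compared with 15.4%) and within 3 kb 20 (64.5%, compared with 26.0%). With replicate 2 left out it was 19 (61.3%, compared with 24.0%), and with replicate 1 left out 21 (67.7%, compared with 30.3%). The share of GRAS genes stayed 2.48 to 3.65 times that of all genes under these 5 settings other than the left-out replicates. The count of 17 for the input (54.8%, compared with 26.7% of all genes) ranged from 12 to 18. The shares of all genes under the input alternatives were not computed. The range of ratios for AtSMOS1 therefore has no counterpart in the control. The SCL28 count of 1 became 0 without AT1G63100. The count of 1 gene with peaks of both proteins became 0 without AT1G63100, with edges within 1 kb and where the −log10 q had to reach 5. The count of 0 for overlapping peaks stayed at 0 under all alternatives run. No paired analysis was possible because no result comes from a test.

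Limits are the 2 replicates per protein, the single input, and an antibody against GFP without a sample of precipitated plants lacking GFP. Binding by a protein and signal that any such precipitation brings down cannot be told apart.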
